A study of Mus musculus with 8 samples.

Results

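Ferritin and iron handling genes were followed in CD11c positive cells from mouse bone marrow, with and without a lipid load. The 9 genes were chosen by symbol: the ferritin chains Fth1 and Ftl1, the ferritin receptor Ncoa4, the importers Tfrc and Slc11a2, the phagosomal transporter Slc11a1, the exporter Slc40a1, and the iron regulatory proteins encoded by Ireb2 and Aco1. All 9 were among the 11756 genes of the table and all 9 passed the filter on low values. The cells came from femurs and tibias of C57BL/6 mice and were isolated by flow cytometry for CD11c, an integrin of dendritic cells and some macrophages. On culture day 6 they received acetylated low density lipoprotein (acLDL, 4 libraries, acLDL 1 to 4) or no acLDL (4 libraries, control 1 to 4), for 24 h. acLDL is a modified lipoprotein taken up by scavenger receptors, used in the series as a model of an atherosclerotic environment. No label gives the age of the mice or ties the libraries to animals or cultures. The spread between libraries, on which every p-value rests, may thus be technical.

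Ferritin is a hollow shell of heavy (Fth1) and light (Ftl1) chains that stores iron in a form that does not react with peroxides. Cells take up transferrin-bound iron through the transferrin receptor, move it out of endosomes with Slc11a2, and release it through ferroportin, Slc40a1. In iron-poor cells, the iron regulatory proteins bind a hairpin in messages, the iron-responsive element. A hairpin before the coding part (as in ferritin and ferroportin messages) then blocks translation, and hairpins behind it (as in the transferrin receptor message) protect the message from decay. Macrophages are known for recycling the iron of engulfed red cells.

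The hairpins are shown because they are a regulatory feature that the search below found in 4 of the 9 members. Reference transcripts (GENCODE mouse release 21, GRCm38) were searched on the transcribed strand for a C, any 5 bases, the loop CAGTGN and 5 bases that pair with the first 5, with G-T pairs allowed. Each line gives the message, its place, and 29 bases 5′ to 3′ with the bulged C and the loop in capitals.
Fth1, before the coding part, chr19:9982732-9982760, plus strand: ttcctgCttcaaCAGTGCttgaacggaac
Ftl1, before the coding part, chr7:45459779-45459807, minus strand: gtcttgCttcaaCAGTGTttgaacggaac
Slc40a1, before the coding part, chr1:45925465-45925493, minus strand: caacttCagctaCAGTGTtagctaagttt
Tfrc, behind the coding part, chr16:32631219-32631247, plus strand: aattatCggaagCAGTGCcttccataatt
Tfrc, behind the coding part, chr16:32631598-32631626, plus strand: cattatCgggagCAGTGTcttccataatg
Tfrc, behind the coding part, chr16:32631663-32631691, plus strand: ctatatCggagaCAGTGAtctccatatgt
Tfrc, behind the coding part, chr16:32631710-32631738, plus strand: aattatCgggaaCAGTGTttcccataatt

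The elements of Fth1 and Ftl1 differed at 3 of 29 bases, and those of Fth1 and Slc40a1 at 16. The first Tfrc element differed from the second at 4 bases and from the third at 10. A match is a description of letters, not of binding. Such a match was held by 294 of 21877 coding genes, or 1.34%, by 31 before the coding part (0.142%) and by 129 behind it (0.590%). Slc11a2, Slc11a1, Ncoa4, Ireb2 and Aco1 held none of this exact form in the transcripts searched. In the Fth1 and Ftl1 transcripts of 929 nt and 968 nt the element began at base 87 and base 78, and in the Tfrc transcript of 4890 nt the 4 elements began at bases 3315 to 3806.

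**Figure D1:**
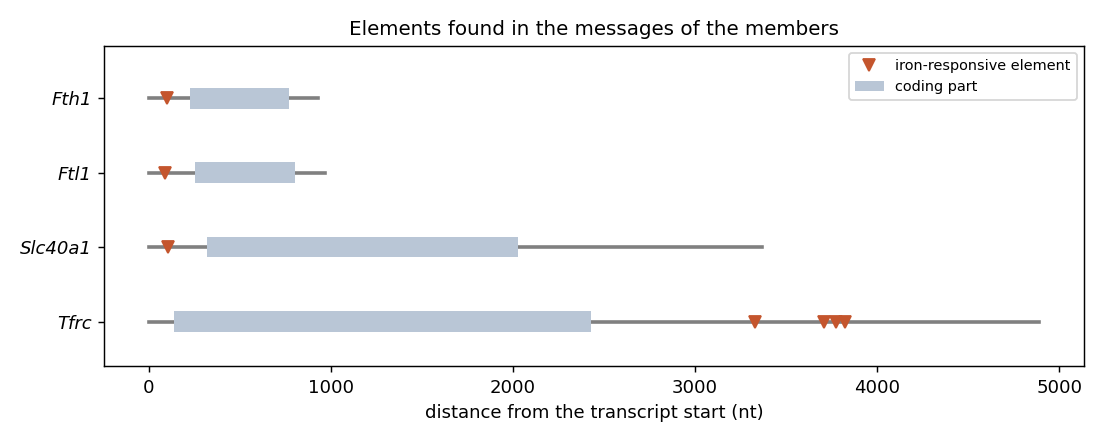
Horizontal axis: distance from the transcript start in nucleotides, for 1 reference transcript each of Fth1, Ftl1, Slc40a1 and Tfrc; boxes are the coding part and triangles the elements found. Fth1, Ftl1 and Slc40a1 hold 1 element before the coding part, and Tfrc holds 4 behind it.

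Libraries also differed widely within the acLDL group. Totals of the deposited values were close, from 3917430 to 4385050. Reads were not recovered, and a depth estimated only from a step in the values was 3231060 to 5458180 reads. An index of short transcripts was computed as the mean log2 deviation of the 489 tested genes with no coding transcript of 1000 nt or more. It was 1.11, -1.36, -2.25 and -0.30 in acLDL 1 to 4, and 0.06, 0.94, 1.08 and 0.72 in control 1 to 4. acLDL 2 and 3 therefore stood apart, and acLDL 1 lay above every control. The 6 dendritic cell markers, Itgax (CD11c) and H2-Ab1 among them, summed to 59.1 to 5053 with acLDL and 2117 to 4590 in controls. Most of this sum was H2-Ab1, at 41.3 to 4080 and 1931 to 3733, while Flt3, Zbtb46 and Cd209a were at 0 to 26.7. Itgax itself was listed at 0 in acLDL 3. The 7 macrophage markers in the table, of 8 listed, summed to 7708 to 11035.5 and 6791 to 8779, mostly from Csf1r, at 4087 to 9634 and 3838 to 5577. The macrophage markers did not share a direction. Cd68, C1qa, C1qb and Mrc1 lay below every control in acLDL 2, 3 and 4, and Adgre1, Cd68 and C1qa were listed at 0 in acLDL 3. Csf1r lay above every control in acLDL 2, 3 and 4, at 8639, 9634 and 5872. Mertk was at 1503, 1056 and 747 in these libraries, and at 1133, 530, 621 and 589 in control 1 to 4. The 5 granulocyte markers in the table, of 7 listed, summed to 248 to 10653 and 4903 to 12566. Of 10 erythroid markers, Hbb-bs and Car2 were in the table, at a sum of 83.7 to 212 with acLDL and 272 to 1480 in controls. Of 4 markers each, Cd79a stood for lymphocytes, at 19.3 to 39.3 and 0 to 19.8, and Sparc for stroma, at 17.4 to 111 and 12.2 to 24.7. The part of these marker differences in the results below was not tested.

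The comparison of acLDL with control asks how lipid loading changes these cells, and none of the 9 iron handling genes passed its threshold. Values are the authors' normalized signal per gene, not divided by transcript length, and the test was limma on log2(value + 5) over 10091 genes with Benjamini-Hochberg adjustment at 0.05. The ferritin pair ran from the level of the controls in acLDL 1 down to 310.2 (Fth1) and 339 (Ftl1) in acLDL 3, against control means of 29664 and 25906. In bulk RNA, fewer cells of a type and less RNA per cell cannot be told apart. Ncoa4, Slc11a1 and Aco1 were also low in acLDL 2, 3 and 4. Ireb2 had a higher mean with acLDL, and Tfrc, Slc11a2 and Slc40a1 overlapped widely between the groups. With adjusted p under 0.05, 0 of 9 members and 0% of all tested genes were called. At an unadjusted p under 0.05, 2 members were lower (Ftl1 and Slc11a1), beside 8.93% of all tested genes, and 0 were higher, beside 7.42%. For 0 of 9 members did the groups not overlap, beside 2.2% of tested genes that were lower and 3.44% that were higher in this way. The mean log2 value was lower for 7 of 9 members, beside 55.7% of all genes. The median log2 fold change of the 9 was -0.59, against -0.13 for all tested genes.

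**Figure D2:**
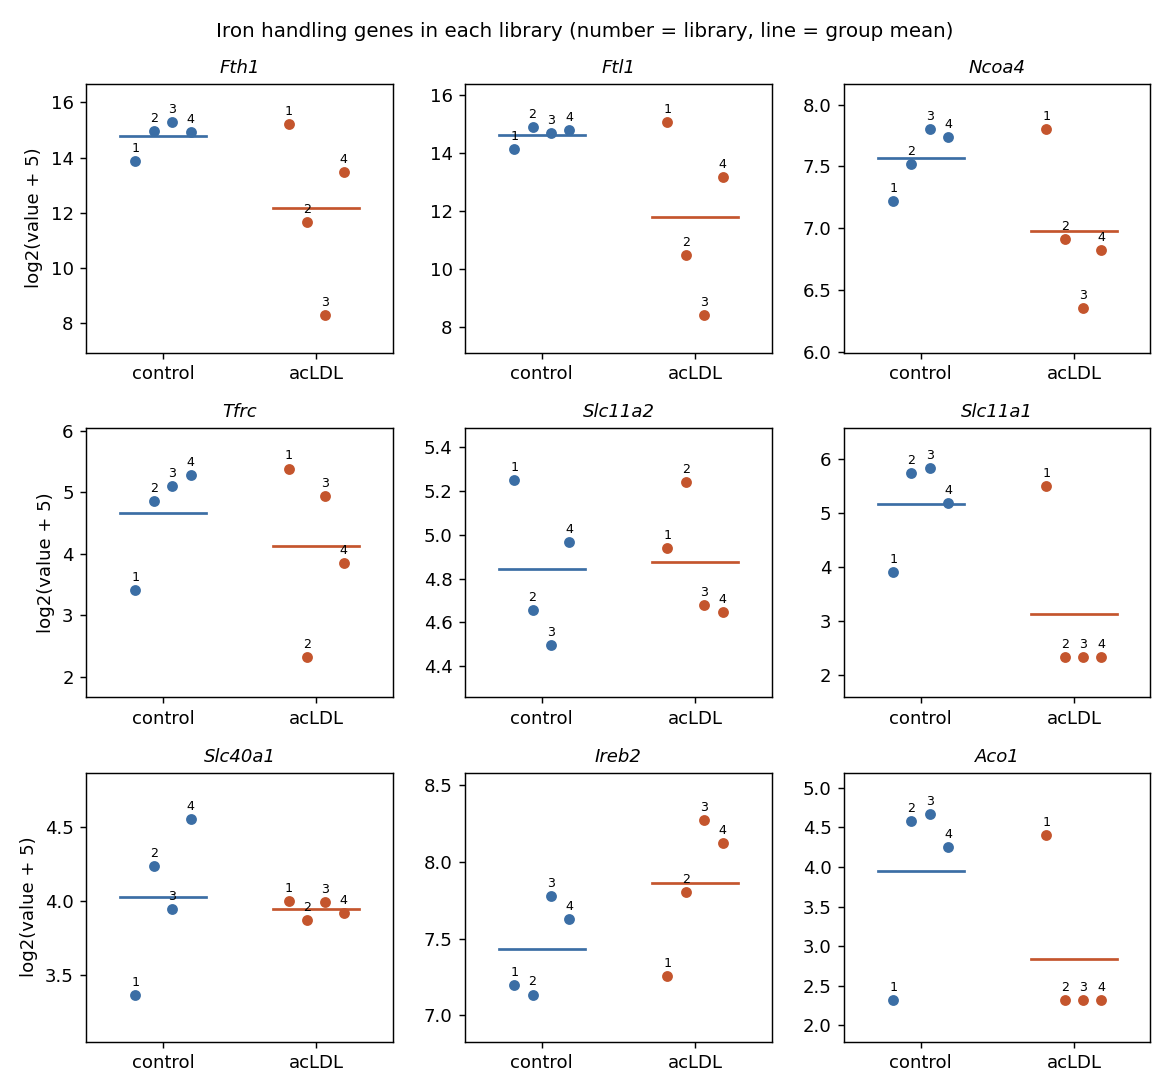
Vertical axis: log2(value + 5) of each gene in each library; numbers are library numbers and lines are group means of 4 libraries. acLDL 1 sits with the controls for Fth1, Ftl1, Ncoa4, Slc11a1 and Aco1, and acLDL 2 and 3 sit lowest for both ferritin chains.

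Fth1, the heavy chain with the ferroxidase site (chromosome 19, 9980598 to 9985098, plus strand), was at 38176, 3242, 310.2 and 11330 in acLDL 1 to 4. In control 1 to 4 it was at 14877, 32344, 40534 and 30901. acLDL 2, 3 and 4 lay below every control, and acLDL 1 lay above 3 of the 4. The mean was 13265 ± 17249 (SD, n = 4) in acLDL libraries against 29664 ± 10732 in controls. This gave a log2 fold change of -2.60 (SE 1.25) at limma's adjusted p = 0.300, and the 95% interval ran from -5.44 to 0.23.

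Ftl1, the light chain that helps to seed the iron core (chromosome 7, 45457944 to 45459884, minus strand), was at 34936, 1435, 339 and 9295 in acLDL 1 to 4. In control 1 to 4 it was at 18085, 30678, 26416 and 28447. The same 3 acLDL libraries lay below every control, and acLDL 1 was the highest of all 8. The mean was 11501 ± 16124 (SD, n = 4) in acLDL libraries against 25906 ± 5497 in controls, for a log2 fold change of -2.84 (SE 1.22) at limma's adjusted p = 0.298. Ferritin genes have near copies, and how reads were divided among them was not tested. Of light-chain copies in the table, Ftl1-ps1 was at 22.98 in acLDL 1, listed at 0 in acLDL 2, 3 and 4, and at 25.7, 32.2, 20.4 and 12.8 in the controls. Ftl2-ps was at 83.8 in control 2 and listed at 0 elsewhere.

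The 2 chains together took 1.77%, 0.111%, 0.0148% and 0.526% of the total in acLDL 1 to 4, and 0.794%, 1.48%, 1.60% and 1.49% in control 1 to 4. By rank within a library, Fth1 was between 7 and 27 in acLDL 1 and the 4 controls, and at 43, 192 and 1875 in acLDL 4, 2 and 3. The balance of the chains moved far less than their level. The log2 difference of Fth1 minus Ftl1 was 0.13, 1.17, -0.12 and 0.29 in acLDL 1 to 4 and -0.28, 0.08, 0.62 and 0.12 in control 1 to 4. Its means were 0.36 ± 0.56 (SD, n = 4) and 0.13 ± 0.37, and the groups overlapped. acLDL 2, with 2.26 times as much Fth1 as Ftl1, had the highest balance, and control 1, with 0.823 times, the lowest.

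**Figure D3:**
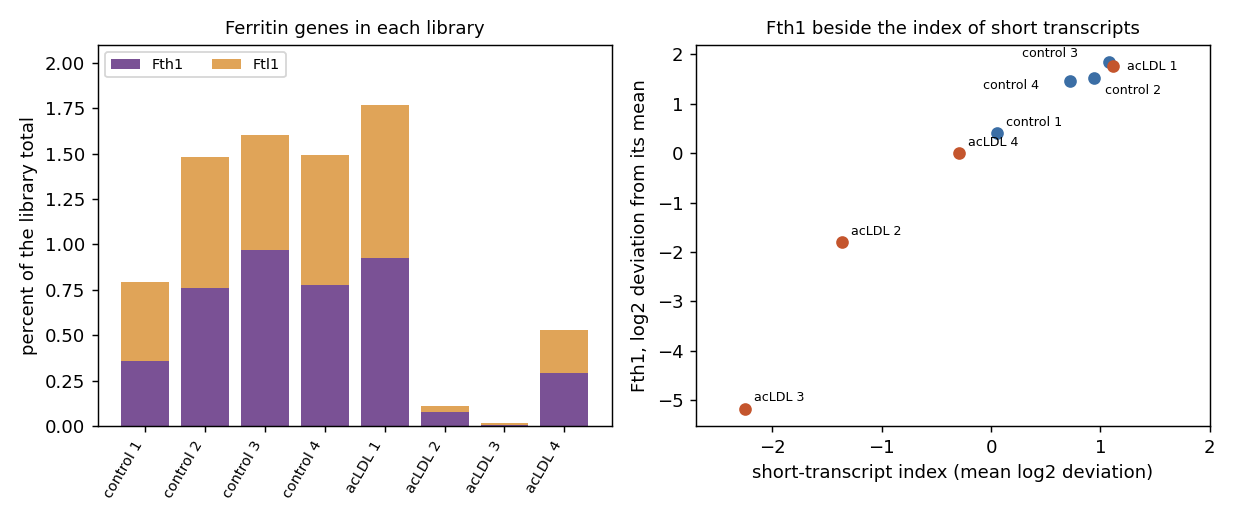
Left: Fth1 and Ftl1 as a percent of each library's total, stacked; right: Fth1 as log2 deviation from its mean over 8 libraries against the index of short transcripts, 1 point per library. The share runs from 0.0148% in acLDL 3 to 1.77% in acLDL 1, and the library with the lowest index has the lowest Fth1.

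The order of the libraries by ferritin was close to their order by the index of short transcripts. acLDL 3, 2 and 4 and control 1 were the lowest by the index and by both chains. Ftl1 is 1 of the 489 genes of the index, while Fth1, whose longest listed transcript has 1494 nt, is not. Of those 489 genes, 85.9% had a lower mean with acLDL, at a median log2 fold change of -1.50, and 13.1% had a lower fold change than Fth1 and 7.77% than Ftl1. With the index as a covariate in limma, the log2 fold change of Fth1 was 0.08 (SE 0.44) and that of Ftl1 -0.20 (SE 0.39), both with adjusted p = 0.999. The index was lower in acLDL 2, 3 and 4 than in every control, so the covariate shares its direction with the group and the 2 cannot be fully told apart. Without acLDL 2 and 3, the log2 fold change was -0.42 (SE 0.56) for Fth1 and -0.50 (SE 0.50) for Ftl1, with limma's adjusted p = 0.990 for both.

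Outside the 9 members, the genes whose log2 values ran most like Ftl1 over the 8 libraries were Cyba, which encodes a subunit of the phagocyte NADPH oxidase, Gm10175, and Il2rg, the common cytokine receptor chain. Their Pearson correlation with Ftl1 was 0.998 each, as a description. For Fth1 these were the glycolytic gene Pgk1, the peptide transporter gene Tap1 and Pdpn, at 0.999, 0.999 and 0.998. The correlation between Fth1 and Ftl1 was 0.982. The lowest library value of these 6 genes was 14.9 for Cyba and 0 for the others, and all 6 had a negative log2 fold change, from -3.27 to -1.64. Transcript lengths were 744 nt for Cyba and 1670 nt for Il2rg, with none listed for Gm10175. They were 1825, 2953 and 1817 nt for Pgk1, Tap1 and Pdpn. Il2rg, Pgk1, Tap1 and Pdpn are thus too long for the index of short transcripts, and Cyba is not. The points share libraries that stand apart, so these values describe that pattern as much as any gene.

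Ncoa4, the receptor that carries ferritin into lysosomes for release of its iron (chromosome 14, 32159865 to 32179855, plus strand), was at 219, 116, 76.9 and 108 in acLDL 1 to 4. It was at 144, 178, 218 and 209 in control 1 to 4. As for ferritin, acLDL 2, 3 and 4 lay below every control, here by a smaller step, and acLDL 1 was the highest of all 8. The mean was 130 ± 61.5 (SD, n = 4) in acLDL libraries against 187 ± 33.3 in controls, for a log2 fold change of -0.59 (SE 0.33) at limma's adjusted p = 0.319, and -0.04 (SE 0.24) with the index as a covariate. The longest coding transcript of Ncoa4 has 4065 nt.

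Among the importers, Tfrc, the transferrin receptor (chromosome 16, 32608920 to 32632794, plus strand), was at 37.0 and 25.7 in acLDL 1 and 3, at 9.42 in acLDL 4 and listed at 0 in acLDL 2. In control 1 to 4 it was at 5.63, 24.2, 29.6 and 34.1. The lowest control lay at the floor of 5 below which the table lists 0, and the acLDL range covered that of the controls. The log2 fold change was -0.54 (SE 0.74) with limma's adjusted p = 0.668, and 0.09 with the index as a covariate. It was -1.02 with a pseudocount of 1 and -0.25 with one of 20, and 0.06 without acLDL 2, where Tfrc is listed at 0. acLDL 3 held the lowest ferritin of all libraries but a mid-range Tfrc, so the log2 difference of Tfrc minus Fth1 was -3.36 there and from -10.5 to -9.34 in the other 7 libraries.

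Slc11a2, the divalent metal transporter DMT1 (chromosome 15, 100387898 to 100425072, minus strand), was at 25.7, 32.8, 20.6 and 20.03 in acLDL 1 to 4. It was at 33.1, 20.2, 17.6 and 26.3 in the controls. It had the smallest shift of the 9, with means of 24.8 ± 5.92 (SD, n = 4) and 24.3 ± 6.90 and a log2 fold change of 0.03 (SE 0.35, limma's adjusted p = 0.958). The 95% interval of -0.77 to 0.84 leaves room for a change in either direction, and the sign turned under several alternatives. Slc11a2 messages end with or without an iron-responsive element in known isoforms, and the table gives 1 value for all of them.

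Slc11a1, or NRAMP1, pumps metal ions out of phagosomes, and C57BL/6 mice are known to carry an allele of it that does not function. The gene (chromosome 1, 74375195 to 74386062, plus strand) was at 40.1 in acLDL 1 and listed at 0 in acLDL 2, 3 and 4. In control 1 to 4 it was at 9.96, 48.0, 51.8 and 31.1. The listed zeros lie below every control, and acLDL 1 lies within the range of the controls. Its log2 fold change of -2.04 (SE 0.82, limma's adjusted p = 0.298) rests on the pseudocount of 5 and is no bound, and it was -3.61 with a pseudocount of 1 and -0.99 with one of 20. It was -0.64 (SE 0.67) with the index as a covariate and -1.25 (SE 0.97) without acLDL 2 and 3, of which neither passed.

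Slc40a1, ferroportin, the known iron exporter of animal cells (chromosome 1, 45908068 to 45926523, minus strand), was near the floor throughout. It was at 10.99, 9.60, 10.9 and 10.1 in acLDL 1 to 4 and at 5.30, 13.8, 10.4 and 18.4 in control 1 to 4. The acLDL libraries lay within the range of the controls. The log2 fold change was -0.08 (SE 0.42) with limma's adjusted p = 0.919, and its sign turned to 0.50 after quantile normalization. The log2 difference of Slc40a1 minus Tfrc was -0.18 ± 1.30 (SD, n = 4) in acLDL libraries and -0.65 ± 0.46 in controls. The gap between these means, 0.46, rests on the listed 0 of Tfrc in acLDL 2: it was -0.11 without that library, 0.95 with a pseudocount of 1 and 0.19 with one of 20.

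Of the iron regulatory proteins, Ireb2 encodes IRP2, which is degraded when iron is plentiful (chromosome 9, 54863789 to 54912530, plus strand). It was at 148, 218, 305 and 273 in acLDL 1 to 4 and at 141, 136, 214 and 193 in control 1 to 4. acLDL 2, 3 and 4 lay above every control, and acLDL 1 lay among them, where Ncoa4 had acLDL 2, 3 and 4 below every control. The mean was 236 ± 68.9 (SD, n = 4) in acLDL libraries against 171 ± 38.7 in controls, for a log2 fold change of 0.43 (SE 0.28) at limma's adjusted p = 0.378, and 0.15 (SE 0.30) with the covariate. The longest coding transcript of Ireb2, 5770 nt, is the longest among the 9 members.

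Aco1 encodes the cytosolic aconitase, which turns into IRP1 when it loses its iron-sulfur cluster (chromosome 4, 40143081 to 40198338, plus strand). It was at 16.3 in acLDL 1 and listed at 0 in acLDL 2, 3 and 4, and it was at 18.9, 20.4 and 14.01 in control 2, 3 and 4 and listed at 0 in control 1. It was thus near the floor wherever it was seen. The log2 fold change was -1.11 (SE 0.74, limma's adjusted p = 0.382), and -0.05 (SE 0.73) with the covariate. With 4 libraries listed at 0 it rests on the pseudocount, at -2.13 with one of 1 and -0.47 with one of 20.

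**Figure D4:**
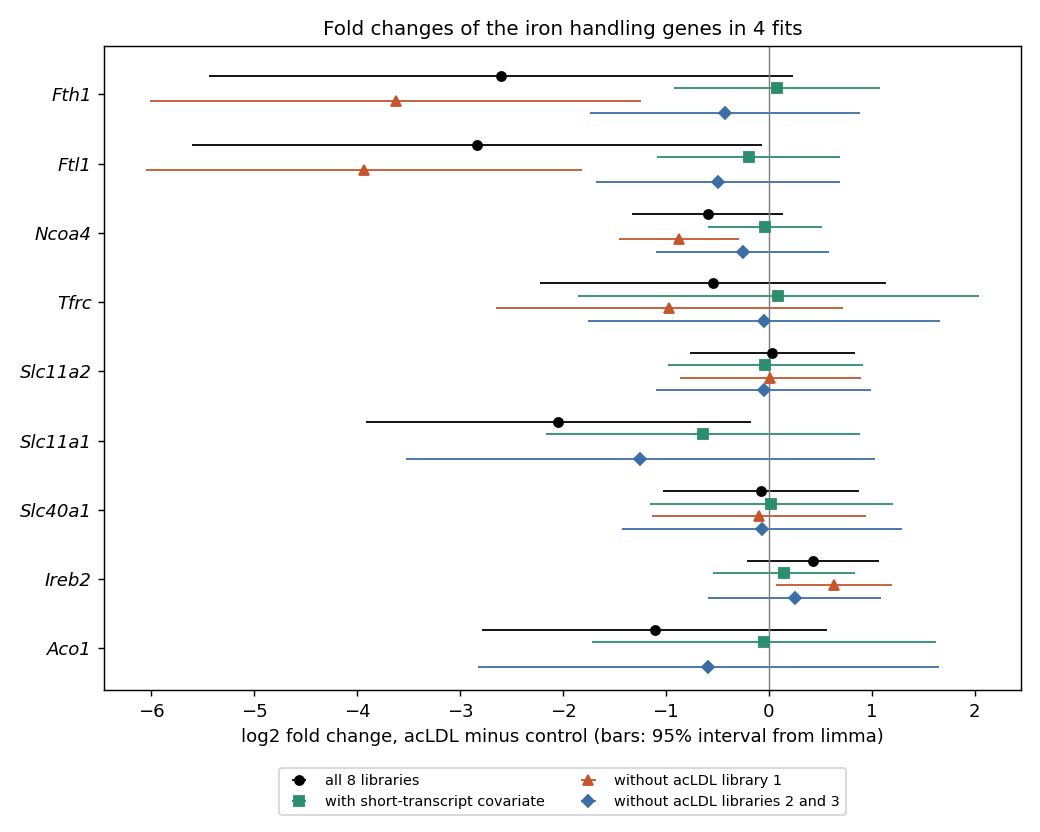
Horizontal axis: log2 fold change of acLDL minus control for each member in 4 fits, with 95% intervals from limma. Fth1 and Ftl1 lie near -3 with all 8 libraries and near 0 with the index of short transcripts as a covariate; Slc11a1 and Aco1 have no value without acLDL 1, where they missed the filter.

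Of the 8 libraries left out in turn, acLDL 1 was the one whose absence brought calls. Without it, 3 of the 7 members tested were called lower, Fth1, Ftl1 and Ncoa4, while of 9476 tested genes 22.2% were called in either direction and 14.5% were called lower. The log2 fold change was then -3.62 (SE 1.04, limma's adjusted p = 0.043) for Fth1, -3.93 (SE 0.92, adjusted p = 0.030) for Ftl1 and -0.87 (SE 0.25, adjusted p = 0.044) for Ncoa4. Ireb2 was at 0.63 (SE 0.25) with adjusted p = 0.096. Slc11a1 and Aco1 fell below the filter in that fit. Over the 19 alternatives run, the adjusted p ranged from 0.043 to 0.999 for Fth1, from 0.030 to 0.999 for Ftl1 and from 0.042 to 0.999 for Ncoa4. With array weights, which count deviating libraries less, Ncoa4, Slc11a1 and Aco1 were called lower, 3 of 9 members. Of all tested genes, 19.4% were then called in either direction and 12.9% were called lower. Slc11a1 and Aco1 are listed at 0 in acLDL 2, 3 and 4, so their calls rest on equal values at the floor, which show no spread. With these weights, Fth1 was at -2.50 and Ftl1 at -2.62, with limma's adjusted p = 0.061 and 0.055. Over all 8 libraries, the two-sided exact permutation test of the log2 means over 70 assignments gave p = 0.11 for Fth1, p = 0.14 for Ftl1 and p = 0.086 for Slc11a1, where 0.029 is the smallest p the design allows.

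The members in which the search found an iron-responsive element ranged widely in log2 fold change. Those with it before the coding part were at -2.60 (Fth1), -2.84 (Ftl1) and -0.08 (Slc40a1). Tfrc, with 4 of the elements shown above behind its coding part, was at -0.54. Over all 20 tested genes with a match before the coding part, chosen after results were known, 12 were lower and 8 higher, at a median of -0.10, and 0 were called. These 20 include Fth1, Ftl1, Slc40a1 and the copy Ftl1-ps1. Over the 76 tested genes with a match behind the coding part, 32 were lower and 44 higher, at a median of 0.08, and 0 were called. Of all tested genes, 55.7% were lower, at a median of -0.13. The difference between these 2 groups of genes was not tested.

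The other genes of iron and haem metabolism were read from a list of 65, of which 49 were in the table and 47 were tested. Of these, 27 were lower and 20 higher with acLDL by mean log2 value, at a median log2 fold change of -0.23, against -0.13 for all genes. 0 were called, and at an unadjusted p under 0.05 there were 2 lower (of all tested genes, 8.93%) and 3 higher (of all, 7.42%). As shares of the 47, these counts lay below those of all genes. With the index of short transcripts as a covariate the median was 0.06, against 0.01 for all genes. Hmox1, which opens the haem ring, and the hepcidin gene Hamp were not analysed here.

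Mitochondrial iron import and iron-sulfur assembly was the largest of the role groups, with 11 of 18 tested genes lower, 7 higher and a median of -0.42. Lyrm4, which stabilizes the cysteine desulfurase of this pathway, was at a mean of 662 ± 144 (SD, n = 4) in acLDL libraries and 416 ± 49.3 in controls (log2 fold change of 0.64 with SE 0.22 and limma's adjusted p = 0.298). The groups overlapped, since acLDL 1, at 449, lay below control 1, at 474. With the index as a covariate, the log2 fold change of Lyrm4 was 0.35.

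Uptake and reduction had 2 of 6 tested genes lower and 4 higher, at a median of 0.15. Lcn2, which binds bacterial iron carriers and is abundant in granulocytes, was at 6.50 to 502 with acLDL and 226 to 640 in controls (log2 fold change -1.96, SE 1.01, and 0.10 with the covariate). Mcoln1, a lysosomal channel that releases iron, was at 0 to 16.5 and 8.96 to 17.9. Haem synthesis had 4 of 7 lower and a median of -0.37. Fech, which inserts the iron, averaged 218 ± 63.9 (SD, n = 4) and 149 ± 27.5 (log2 fold change 0.51, SE 0.27, and 0.18 with the covariate).

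Haem recycling and transport had 5 of 7 tested genes lower, at a median of -0.21. Hmox2, the constitutive haem oxygenase, was at a mean of 548 ± 123 (SD, n = 4) in acLDL libraries and 782 ± 62.9 in controls. The groups did not overlap, beside 2.2% of all tested genes that were lower and 3.44% that were higher without overlap. The gap was narrow, from 712 in acLDL 1 to 721 in control 2, and another gene of the list was higher without overlap. The log2 fold change of Hmox2 was -0.53 (SE 0.20) at an adjusted p of 0.298 in limma, and -0.29 with the covariate. Blvra, a biliverdin reductase, was at 0 to 110 and 16.6 to 95.8. Control genes and chaperones had 5 of 9 lower, at a median of -0.23. Tax1bp1, an adaptor for ferritin turnover with Ncoa4, averaged 608 ± 151 and 397 ± 74.0. Its log2 fold change was 0.59 (SE 0.24, limma's adjusted p = 0.298), and 0.24 with the covariate. The groups overlapped, since acLDL 1, at 419, lay below control 1, at 453.

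Cp, the ferroxidase that works with ferroportin, was at 9.74, 7.71, 9.26 and 0 in acLDL 1 to 4 and at 72.9, 30.6, 10.8 and 58.6 in control 1 to 4. The groups did not overlap, but Cp reached the filter value of 10 only in the 4 controls. For a gene that passes the filter so, acLDL below every control is fixed in advance, as is the sign of the fold change. The lack of overlap is thus no result, and the 2.2% of all tested genes that were lower without overlap is no fair background for it. The gap was narrow, from 9.74 in acLDL 1 to 10.8 in control 3, and the acLDL values lay near the floor of 5. acLDL 1 lay with the other acLDL libraries. The log2 fold change was -1.92 (SE 0.62) with limma's adjusted p = 0.298, and -2.24 (SE 0.75) with the covariate, with adjusted p = 0.848. Unlike ferritin, Cp did not move towards 0 with the index in the fit, but it shared this with other iron and haem genes of the list. The globin gene Hbb-bs, an erythroid marker, was at 54.1 to 190 with acLDL and at 164 to 1429 in controls, and its part in the values of Cp was not tested.

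**Figure D5:**
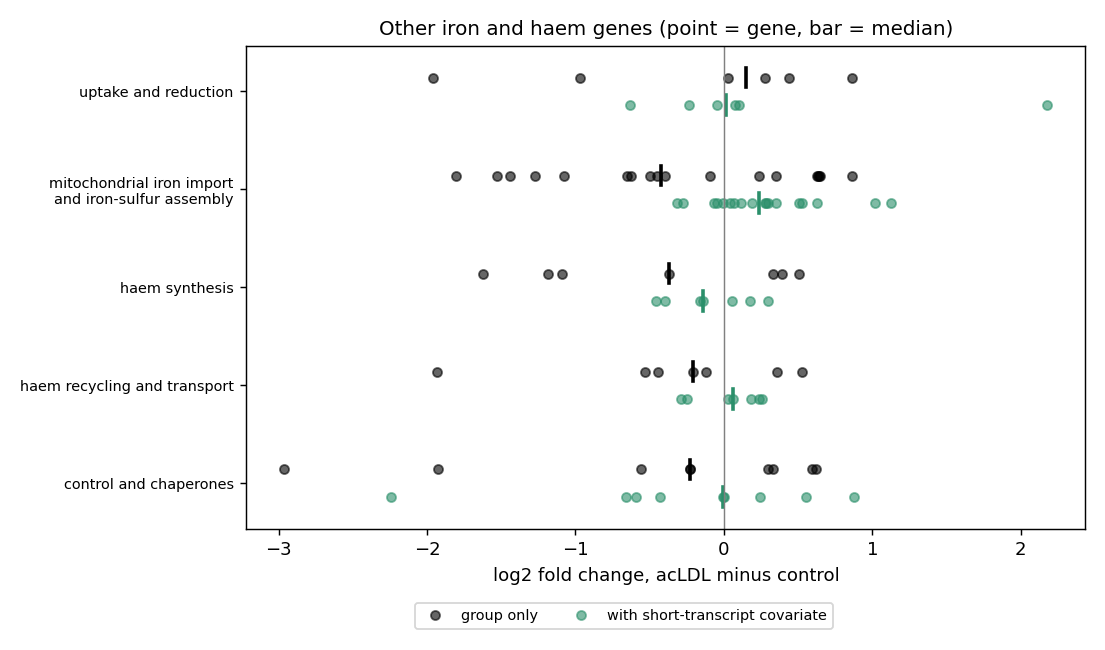
Horizontal axis: log2 fold change of acLDL minus control for 47 other iron and haem genes by role, without and with the index of short transcripts as a covariate; points are genes and bars are medians. The medians run from -0.42 to 0.15 with the group only and from -0.14 to 0.23 with the covariate.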

How the data were processed

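Polyadenylated RNA was extracted on RNeasy columns and made into Lexogen QuantSeq V2 libraries that read the 3′ end, per the labels' protocols; the 5′ end stands in the series' design text instead. Base calls were converted with bcl2fastq 2.20 and reads assigned to mm10 with kallisto (version not given in the sources used here), per the submitters' processing notes. The deposited values are a normalized signal per gene symbol and library, although named as raw counts: 11.0% to 12.7% of values per library are whole multiples of 1 step (tolerance 0.01 steps, 2% by chance), so reads were not recovered and no count model or counting interval was used. No value lies between 0 and 5, so a value of 0 may stand for a low estimate. Depth was estimated as each total divided by its step.

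The 10091 genes that reached a value of 10 in 4 or more libraries were fitted with limma 3.58.1 (R 4.3.3; trend and robust moderation) on log2(value + 5), acLDL minus control, with Benjamini-Hochberg adjustment. This scale understates changes of low genes. Transcript lengths came from GENCODE mouse release 21 (GRCm38), which matched 96.6% of symbols. Scripts were tested on simulated data; Python was 3.11.15. The members, lists and alternatives were chosen with earlier results of these data known. Named genes are the 9 members, ferritin copies in the table, from each role group up to 3 called genes or else the 2 with the smallest p, and the 3 genes most correlated with Fth1 and with Ftl1. Some genes this rule takes are left out here. Alternatives were other scalings, filters, pseudocounts, weights and model terms, and leaving out libraries.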

Additional observations from a re-analysis of the deposited data

Results flagged for a closer look

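In 45 groups of 4 library values looked at, 7 held a library far from the other 3, with a gap, as a share of the group's range, above Dixon's 95% critical value. Chance gives about 1 in 20 groups, but in 4 of the 7 the other 3 values are listed at 0, which fixes the gap at the whole range, so the count cannot be read against that rate. In the acLDL group, acLDL 1 stood alone for Slc11a1 (40.1), Aco1 (16.3) and Ftl1-ps1 (22.98), and acLDL 3 stood alone for Tfrc minus Fth1 (-3.36 on the log2 scale). In controls, control 1 stood alone for the ferritin share (0.794% of the total) and Blvra (16.6), and control 2 for Ftl2-ps (83.8).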

How the results depend on the processing

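Members called were 0 over all 8 libraries, 3 with array weights (Ncoa4, Slc11a1 and Aco1), and 0 to 3 when each library was left out, 3 only without acLDL 1. The calls of Slc11a1 and Aco1 rest on listed zeros in acLDL 2, 3 and 4. All genes called were 0, 1 after quantile normalization, 1957 with array weights, and 0 to 2102 when each library was left out, 2102 without acLDL 1. Quantile normalization moved the median log2 fold change of all genes from -0.13 to 0.15. Log2 fold changes turned in sign with the short-transcript covariate for Fth1 (0.076), Tfrc (0.093), Slc40a1 (0.026) and Slc11a2 (-0.035). The sign also turned for Slc40a1 after quantile normalization (0.50), and for Slc11a2 with median-of-ratios scaling (-0.00038) and without acLDL 2 and 3 (-0.049). When each library was left out, signs turned for Tfrc without acLDL 2 (range -0.97 to 0.058), for Slc40a1 without control 4 (-0.30 to 0.096) and for Slc11a2 without acLDL 2, control 2 or control 3 (-0.087 to 0.17). The cause was not tested. With the replicate number as a block, 0 members and 0 genes were called. Same-numbered libraries correlated at -0.55 to 0.03 in their deviations. No label says whether the numbers pair libraries. These correlations cannot settle it, because the libraries also differ by the index of short transcripts. Count tests could not be run, because the values are not counts. Values of Aco1, Slc40a1 and Tfrc, and those of Cp with acLDL, lay near the floor of 5, where a listed 0 gives no level.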
